A study of Mus musculus with 6 samples.

Results

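The forkhead genes other than *Foxd4* were followed in mouse embryos that lack normal *Zic2*, a zinc finger transcription factor gene required for left-right asymmetry and forebrain development. Members were taken by gene symbol. They are all genes on the array whose symbol is Fox, a letter from a to s and a number, with *Foxd4*, *Foxh1* and *Foxj1* left out, which gave 40 of the 19057 genes and 73 of the 45281 probes. The samples were 3 pools of *Zic2* iso/iso embryos, set against 3 pools of wildtype embryos, each pool holding 8 whole embryos of matched stage (E8.0 to E8.5, 0 to 4 somites). The *iso* allele came from a chemical mutagenesis screen and carries a premature stop codon in *Zic2*, and all embryos shared the C3H/HeH background and came from matings of *Zic2* iso/+ parents.

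Forkhead factors bind DNA through a winged-helix domain and act at almost every step of embryonic patterning. In the early somite embryo *Foxa2* is used in the node, notochord and endoderm, and *Foxc1* and *Foxc2* in paraxial mesoderm and vessels. *Foxf1* is used in lateral plate mesoderm and *Foxd3* in the neural crest, while most Foxk, Foxo and Foxp factors work in many cell types. Several respond to signals such as Hedgehog and BMP, or to growth factors through phosphorylation of the protein, which an array of transcripts does not read.

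RNA of each pool was hybridised to 1 Illumina Mouse WG6 v2 array, and the values used here are quantile normalised log2 intensities, listed for each genotype in the order of replicates 1, 2 and 3. Median intensities before normalisation were 154 to 187 in the *Zic2* iso/iso pools and 158 to 164 in the wildtype pools. The brighter of 2 probes for *Zic2* read 7.64, 7.57 and 8.01 in *Zic2* iso/iso pools, against 8.27, 8.06 and 8.00 in wildtype pools (log2), so that 1 mutant pool lay within the wildtype range. A point mutation need not alter a transcript's level, and this probe is no check of the labels. Marker lists for neural plate, heart, somites, endothelium, primitive blood, yolk sac and node, written as a check of the labelled tissue, each had at least 4 members above the dim level defined next, while of 3 trophoblast genes measured 1 was above it.

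A probe was taken as above the dim level where the mean of at least 1 genotype exceeded 7.47 (log2), the 95th percentile of 1603 probes for receptor, keratin-associated and defensin genes that embryos of this stage are not known to use. The brightest probe stands for a gene. By this measure 24 of the 40 forkhead genes (60%) were above the dim level, against 56.9% of all genes. In both genotypes 22 were above it, and *Foxd2* and *Foxn4* were above it in the wildtype mean only. The level is a soft one, since 3 members lay within 0.1 above it and 7 within 0.1 below it.

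The 16 forkhead genes that were not above the dim level had genotype means of 7.10 to 7.46 (log2). They were *Foxb2*, *Foxd1*, *Foxd3*, *Foxe1*, *Foxe3*, *Foxf2*, *Foxi1*, *Foxl1*, *Foxl2*, *Foxn1*, *Foxo4*, *Foxo6*, *Foxp2*, *Foxr1*, *Foxr2* and *Foxs1*. Among them are factors of the neural crest (*Foxd3*), thyroid (*Foxe1*), lens (*Foxe3*), inner ear (*Foxi1*), ovary (*Foxl2*) and thymus (*Foxn1*). Their means lay within the range of the dim probes in both genotypes, and no fold change is given. In 2 of them the pools of the genotypes did not overlap all the same. *Foxl2* measured 7.25, 7.19 and 7.22 in *Zic2* iso/iso pools and 7.39, 7.46 and 7.53 in wildtype pools, and *Foxn1* measured 7.28, 7.29 and 7.19 in *Zic2* iso/iso pools and 7.05, 7.11 and 7.13 in wildtype pools (log2). The mutant pools were thus lower for *Foxl2* and higher for *Foxn1*.

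No forkhead transcript passed the test between genotypes. Of the 73 probes, 0 had an adjusted p under 0.05 (limma, Benjamini-Hochberg over all 45281 probes), where 0.0442% of all probes did, and 7 were under 0.05 before adjustment (9.59%, against 6.02% of all probes). The log2 fold changes of *Zic2* iso/iso minus wildtype ran from -0.36 to 0.25. Their median size in the 24 genes above the dim level was 0.07, the same to 2 decimals as in all genes above it (0.07). The 95% intervals of 23 of the 24 genes above the dim level lay within 0.5 of 0 on the log2 scale, a 1.41-fold difference, and the exception was *Foxc2*. These intervals are of measured intensity, from which no background was subtracted. For members near the dim level, such as *Foxd2* and *Foxn4*, they set no limit on the change in transcript. With background correction the log2 fold change of *Foxc2* went from -0.36 to -0.54. *Foxd4*, the forkhead gene left out as an exception, had a log2 fold change of -2.49 (limma adjusted p = 8.32e-06).

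Of the 24 genes, 15 had a log2 fold change below 0 and 9 above 0, where 52.5% of all genes above the dim level were below 0. The 15 include *Foxd2* and *Foxn4*, above the dim level in the wildtype mean only, which fixes their sign. Of the 24 signs 9 turned from below to above 0 without normalisation between arrays, which moved the median of all probes by 0.05, while 0 turned with median centring, with background correction or with the rewritten variance stabilising normalisation. In 4 of the 24 genes (16.7%) the pools of the 2 genotypes did not overlap, against 12.4% of all genes above the dim level (7.41% lower and 5.03% higher). These were *Foxc2*, *Foxp4* and *Foxb1*, with all *Zic2* iso/iso pools lower, and *Foxm1*, with all of them higher. With *Foxl2* and *Foxn1* the count over all members was 6 of 40 (15%), against 10.9% of all genes. *Foxc2* and *Foxm1* kept their separate pools under each of the 4 other scalings tried. A second *Foxm1* probe of like brightness had overlapping pools on the quantile normalised values (log2 fold change -0.04). *Foxb1* and *Foxp4* had overlapping pools without normalisation and with median centring, whereas the pools of *Foxf1* were separate with median centring and with the variance stabilising normalisation.

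**Figure D1:**
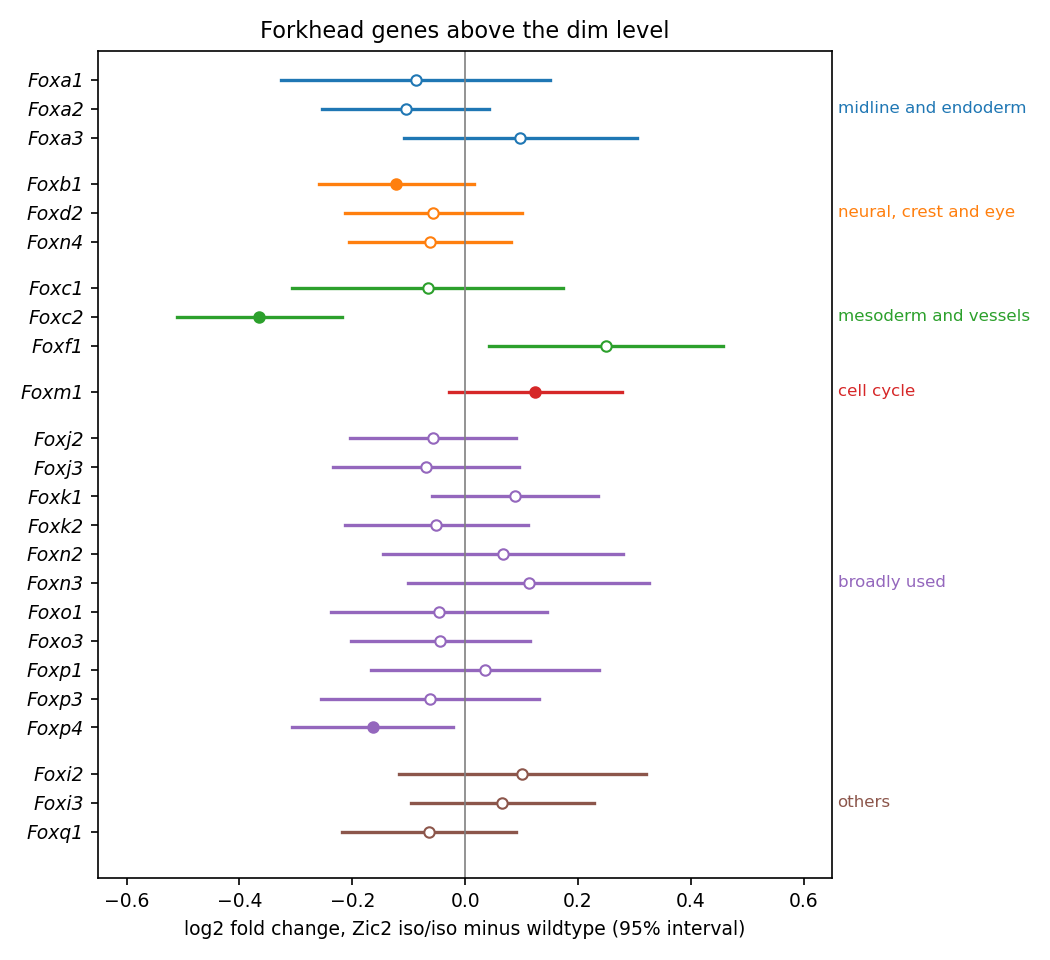
Log2 fold change of *Zic2* iso/iso minus wildtype (x axis) for the 24 forkhead genes above the dim level, grouped by role and with 95% intervals from limma (3 pools per genotype). Filled points mark the 4 genes whose pools did not overlap, and *Foxc2*, at -0.36, is the point farthest from 0.

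Among forkhead genes of mesoderm and vessels, 3 of 7 were above the dim level, and the lowest and the highest fold changes of the family were both found here. *Foxc2*, which acts with *Foxc1* in somites, heart outflow and vessels, was read by 1 probe. It measured 7.54, 7.66 and 7.68 in *Zic2* iso/iso pools, against 7.98, 7.95 and 8.05 in wildtype pools (log2). The deposited intensities behind these values were 216, 201 and 189 in the mutant pools and 244, 250 and 249 in the wildtype pools. Every *Zic2* iso/iso pool was below every wildtype pool, on both scales. The log2 fold change was -0.36 (SE 0.07, 95% interval -0.51 to -0.22), or 1.29-fold lower, and its adjusted p was 0.142 (limma). The exact two-sided permutation test over the 6 pools gave p = 0.1, the smallest that 3 pools against 3 allow.

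*Foxf1*, needed in lateral plate and extraembryonic mesoderm, was also read by 1 probe. It measured 8.16, 8.59 and 8.34 in *Zic2* iso/iso pools, against 8.13, 8.17 and 8.05 in wildtype pools (log2). Mutant pools 2 and 3 were above the wildtype pools, while mutant pool 1 lay among them. The log2 fold change was 0.25 (SE 0.10, 95% interval 0.04 to 0.46, limma adjusted p = 0.766), and without *Zic2* iso/iso replicate 2 it was 0.13. *Foxc1* measured 8.91, 9.30 and 9.25 in *Zic2* iso/iso pools and 9.44, 9.10 and 9.12 in wildtype pools, and these ranges overlapped widely (log2 fold change -0.07, 95% interval -0.31 to 0.17).

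**Figure D2:**
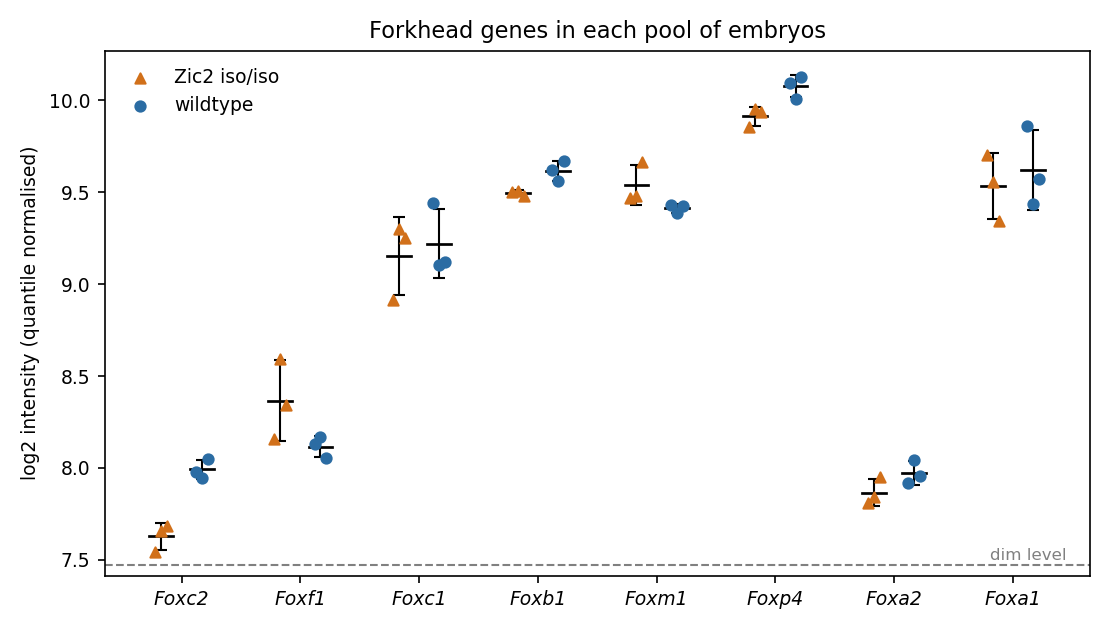
Quantile normalised log2 intensity (y axis) of 8 forkhead genes in each pool, with triangles for *Zic2* iso/iso and circles for wildtype, mean and SD in black (n = 3 pools each) and the dim level of 7.47 dashed. *Foxc2*, *Foxb1*, *Foxm1* and *Foxp4* have pools that do not overlap, and those of *Foxf1*, *Foxc1*, *Foxa2* and *Foxa1* do. Levels of different genes are not to be set against each other, since probes differ in brightness.

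*Foxf1* and *Foxc2* lie close together on chromosome 8, where the RefSeq gene table (GRCm38.p6) gives the order *Foxf1*, *Mthfsd*, *Foxc2* and *Foxl1* among protein-coding genes. Their log2 fold changes along this order were 0.25, 0.11 and -0.36, and *Foxl1* was not above the dim level. The difference of *Foxc2* minus *Foxf1* within a pool was -0.61, -0.94 and -0.66 in *Zic2* iso/iso pools, against -0.15, -0.22 and -0.00 in wildtype pools (log2). The mutant pools were all lower in this difference, which is given with no test because the 2 genes were set side by side after their values had been seen. The second cluster, *Foxq1*, *Foxf2* and *Foxc1* on chromosome 13, had log2 fold changes of -0.06 for *Foxq1* and -0.07 for *Foxc1*, with *Foxf2* not above the dim level.

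Markers of the tissues that use these genes were read in the same pools. The 4 somite and presomitic genes had a median log2 fold change of -0.20, with mean levels of 9.11 to 9.31 in *Zic2* iso/iso pools and 9.29 to 9.51 in wildtype pools. The 5 yolk sac genes had a median of 0.15, with mean levels of 10.77 to 11.28 in *Zic2* iso/iso pools and 10.56 to 10.98 in wildtype pools. The somite and yolk sac ranges overlapped between genotypes. The 4 heart genes had a median of -0.48, and their mean level of 9.17 to 9.91 in *Zic2* iso/iso pools lay below the 9.96 to 10.11 in wildtype pools, with no overlap. Taken singly, 0 of the 4 heart genes had separate pools. In the yolk sac list 1 gene had all mutant pools higher, *Apob* (0.50, limma adjusted p = 0.147). In the somite list 1 had them all lower, *Tcf15* (-0.52, limma adjusted p = 0.269). Pools did not overlap in 10.9% of all genes.

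Other tissues were read in the same way. The 4 primitive blood genes had a median log2 fold change of -0.46, with mean levels of 7.76 to 9.72 in *Zic2* iso/iso pools and 8.99 to 9.30 in wildtype pools, so that the mutant range reached below and above the wildtype one. The 5 endothelial genes had a median of -0.08, with mean levels of 8.03 to 8.12 in *Zic2* iso/iso pools and 8.07 to 8.14 in wildtype pools. The 6 neural plate genes had a median of 0.02 and the 3 trophoblast genes one of -0.08. The 5 node genes had a median of -0.05, and the 4 of them above the dim level one of -0.44, a value that no single gene had. *Nodal* (-1.07) and *Shh* (-0.86) were lower in all mutant pools. *Foxj1* (-0.02) and *Noto* (0.002) differed little, with overlapping pools, and *Dand5* was not above the dim level. The mean level over all 5 node genes was 7.71 to 7.82 in *Zic2* iso/iso pools, below the 8.11 to 8.24 in wildtype pools, with no overlap. Of all these genes, the ones past the adjusted threshold were 2 node genes, *Nodal* and *Shh* (limma). The part of these tissues in the values of *Foxc2* and *Foxf1* was not tested, and in RNA of whole embryos fewer cells of a type and less RNA per cell cannot be told apart.

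Genes of other kinds that act beside the Foxc factors were looked at as a list of 12, of which 9 were above the dim level and 0 passed the test (limma, adjusted p under 0.05), with a median log2 fold change of -0.08 against -0.00 over all genes. *Tcf15*, a factor of early somites, had the lowest value (-0.52, adjusted p = 0.269) and *Mesp1*, a factor of nascent mesoderm, the highest (0.35, adjusted p = 0.156). All mutant pools were lower in 2 of the 12, *Tcf15* and *Tbx1* (-0.30, limma adjusted p = 0.431), and higher in 1, *Mesp1*. Over all genes pools did not overlap in 10.9%. *Tcf15*, *Meox1*, *Tbx6* and *Kdr* of this list are also among the tissue markers above, so the lists are not separate. Of 10 lateral plate genes set beside *Foxf1*, 7 were above the dim level and 0 passed, with a median of 0.01. Of these *Bmp4*, a growth factor gene, had the largest difference (0.19, limma adjusted p = 0.828), with overlapping pools.

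Among forkhead genes of the midline and endoderm, 3 of 4 were above the dim level, and their log2 fold changes were small. *Foxa2*, required for node and notochord, measured 7.81, 7.84 and 7.95 in *Zic2* iso/iso pools and 7.92, 8.04 and 7.96 in wildtype pools (log2). The mutant values were low but the third reached into the wildtype range. The log2 fold change was -0.11 (95% interval -0.25 to 0.04, limma adjusted p = 0.918), so that differences down to -0.25 lie within the interval.

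The related endoderm factor *Foxa1* measured 9.70, 9.56 and 9.34 in *Zic2* iso/iso pools and 9.86, 9.43 and 9.57 in wildtype pools (log2). *Foxa3*, a factor of gut and liver, measured 9.64, 9.59 and 9.75 in *Zic2* iso/iso pools and 9.45, 9.80 and 9.44 in wildtype pools. The pools of both genes overlapped, with log2 fold changes of -0.09 for *Foxa1* and 0.10 for *Foxa3*.

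Genes known to act with *Foxa2* in the midline and endoderm were read as a list. All 13 measured were above the dim level, with a median log2 fold change of -0.14, and 4 of them passed the test, each lower in *Zic2* iso/iso pools (limma, adjusted p under 0.05), against 0.0840% of all genes called lower. *Nodal*, the signal of the left side, had the lowest log2 fold change (-1.07, SE 0.13, adjusted p = 0.0075), followed by *Shh*, the signal of the notochord (-0.86, SE 0.10, adjusted p = 0.0075), and *Gsc*, a factor of the prechordal plate (-0.78, SE 0.08, adjusted p = 0.00192). The list was written with earlier results of these data known, and its count is not independent evidence. In measured intensity, with no background subtracted, the limits for *Foxa2* given above leave out changes of the size seen in these 3 genes. *Foxa2* was not far above the dim level, with means of 7.87 in *Zic2* iso/iso pools and 7.97 in wildtype pools (log2). Its interval therefore sets no such limit on the change in transcript.

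In the group of neural, crest and eye genes 3 of 7 were above the dim level, with log2 fold changes of -0.12 to -0.06. For *Foxd2* and *Foxn4* the sign follows from their being above that level in the wildtype mean only. *Foxb1*, a gene of the neural tube and hypothalamus, measured 9.50, 9.51 and 9.48 in *Zic2* iso/iso pools and 9.62, 9.56 and 9.67 in wildtype pools (log2). All mutant pools were lower by this probe (log2 fold change -0.12, 95% interval -0.26 to 0.02, limma adjusted p = 0.885). The other probe of *Foxb1* had values of 8.06, 7.95 and 8.12 in *Zic2* iso/iso pools and 8.00, 7.98 and 7.87 in wildtype pools, a log2 fold change of 0.09 with overlapping pools.

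*Foxd2*, a gene of paraxial mesoderm and kidney grouped here with its Foxd relatives, measured 7.43, 7.44 and 7.46 in *Zic2* iso/iso pools and 7.52, 7.37 and 7.60 in wildtype pools. *Foxn4*, a factor of retinal progenitors, had genotype means of 7.44 in *Zic2* iso/iso pools and 7.51 in wildtype pools. Both sat at the dim level, above it in wildtype means only, and in both the pools overlapped.

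The neural crest gene *Foxd3* was not above the dim level, so its partners were read without it. Of 12 crest genes 8 were above the dim level and 1 passed, *Sox9*, a factor of crest and cartilage (log2 fold change -0.69, SE 0.08, limma adjusted p = 0.0075), lower in *Zic2* iso/iso pools, where 0.0840% of all genes were called lower. The median of the list was -0.06. All mutant pools were lower in 3 of the 12 and higher in 1, where pools did not overlap in 10.9% of all genes. *Snai2*, a factor of crest cells as they leave the neural tube, *Ets1* and *Sox10* are named after their values were seen. *Snai2* was the 1 with all mutant pools higher (log2 fold change 0.32, SE 0.07, limma adjusted p = 0.257). In *Ets1* they were all lower (-0.36, SE 0.06, limma adjusted p = 0.126). *Sox10* was lower with overlapping pools (-0.66, SE 0.16, limma adjusted p = 0.393).

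The cell cycle factor *Foxm1*, which drives genes of mitosis, measured 9.47, 9.48 and 9.66 in *Zic2* iso/iso pools and 9.43, 9.38 and 9.42 in wildtype pools (log2). All mutant pools were higher, mutant pool 3 by most (log2 fold change 0.12, 95% interval -0.03 to 0.28, limma adjusted p = 0.898). The second probe of the gene had a log2 fold change of -0.04 with overlapping pools. Of 11 mitotic genes measured, 9 were above the dim level and 0 passed, with a median log2 fold change of -0.02. The mitotic kinase gene *Aurka* had the largest difference of the list, -0.21 (limma adjusted p = 0.683), opposite in sign to the brighter *Foxm1* probe.

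Broadly used forkhead genes made up the largest group, with 11 of 14 above the dim level and log2 fold changes of -0.16 to 0.11. The 11 include *Foxp3*, which is not broadly used, was grouped here with its Foxp relatives and is taken up below. *Foxp4*, a repressor of lung and gut epithelium, measured 9.86, 9.95 and 9.94 in *Zic2* iso/iso pools and 10.09, 10.01 and 10.13 in wildtype pools (log2). The mutant pools were all lower (log2 fold change -0.16, 95% interval -0.31 to -0.02, limma adjusted p = 0.788). Its other 2 probes gave 0.06 and 0.07, with overlapping pools.

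*Foxj3*, a broadly used activator, measured 8.88, 8.94 and 8.95 in *Zic2* iso/iso pools and 8.93, 8.90 and 9.15 in wildtype pools, and its pools overlapped (log2 fold change -0.07). A second *Foxj3* probe measured 8.85, 8.75 and 8.80 in *Zic2* iso/iso pools, below all of the 8.90, 9.21 and 8.89 in wildtype pools (log2 fold change -0.20, limma adjusted p = 0.819). *Foxk2*, a repressor linked to metabolism and autophagy, measured 9.73, 9.70 and 9.95 in *Zic2* iso/iso pools and 9.83, 9.86 and 9.85 in wildtype pools. Here the mutant values lay on both sides of the wildtype values, which were close to each other.

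*Foxn3*, a repressor tied to checkpoint control, measured 10.79, 10.53 and 10.99 in *Zic2* iso/iso pools and 10.71, 10.67 and 10.59 in wildtype pools. *Foxo1*, the insulin-responsive factor that is also needed for vessels, measured 8.39, 8.53 and 8.65 in *Zic2* iso/iso pools and 8.72, 8.43 and 8.56 in wildtype pools. The pools of both overlapped, with log2 fold changes of 0.11 for *Foxn3* and -0.05 for *Foxo1*. The remaining members of the group above the dim level were *Foxj2* (-0.06), *Foxk1* (0.09), *Foxn2* (0.07), *Foxo3* (-0.04) and *Foxp1* (0.04), given as log2 fold changes, and their pools overlapped too.

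*Foxp3*, known as the factor of regulatory T cells, had 1 bright probe that measured 10.54, 10.76 and 10.88 in *Zic2* iso/iso pools and 10.86, 10.83 and 10.68 in wildtype pools (log2). Embryos of this stage hold no T cells, and its 3 other probes did not share this level. One averaged 7.51 in *Zic2* iso/iso pools and 7.47 in wildtype pools, and the others were not above the dim level. Of 6 T cell genes, a list chosen after the bright probe had been seen, 0 were above the dim level, and the bright probe stands for *Foxp3* in the counts only because it is the brightest one. Which transcript it reads was not tested.

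Among genes that regulate or follow the Foxo factors, 11 of 13 were above the dim level and 0 passed the test, with a median log2 fold change of -0.01. The stress gene *Gadd45a* had the largest difference (-0.46, limma adjusted p = 0.144). It was 1 of 2 genes of the 13 with all mutant pools lower, where pools did not overlap in 10.9% of all genes. Of 9 partners of Foxp and Foxk factors, 8 were above the dim level and 0 passed, with a median of -0.03. The corepressor gene *Gatad2b* had the largest difference of that list (0.17, limma adjusted p = 0.933).

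In the group of other forkhead genes 3 of 7 were above the dim level. *Foxi2*, a gene of cranial ectoderm, measured 8.52, 8.63 and 8.33 in *Zic2* iso/iso pools and 8.57, 8.19 and 8.40 in wildtype pools (log2). *Foxq1*, a gene of stomach and hair, measured 8.29, 8.21 and 8.30 in *Zic2* iso/iso pools and 8.22, 8.34 and 8.43 in wildtype pools. The pools of both overlapped, with log2 fold changes of 0.10 for *Foxi2* and -0.06 for *Foxq1*. *Foxi3*, needed for the pharyngeal arches and ear, had a log2 fold change of 0.07 with overlapping pools.

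**Figure D3:**
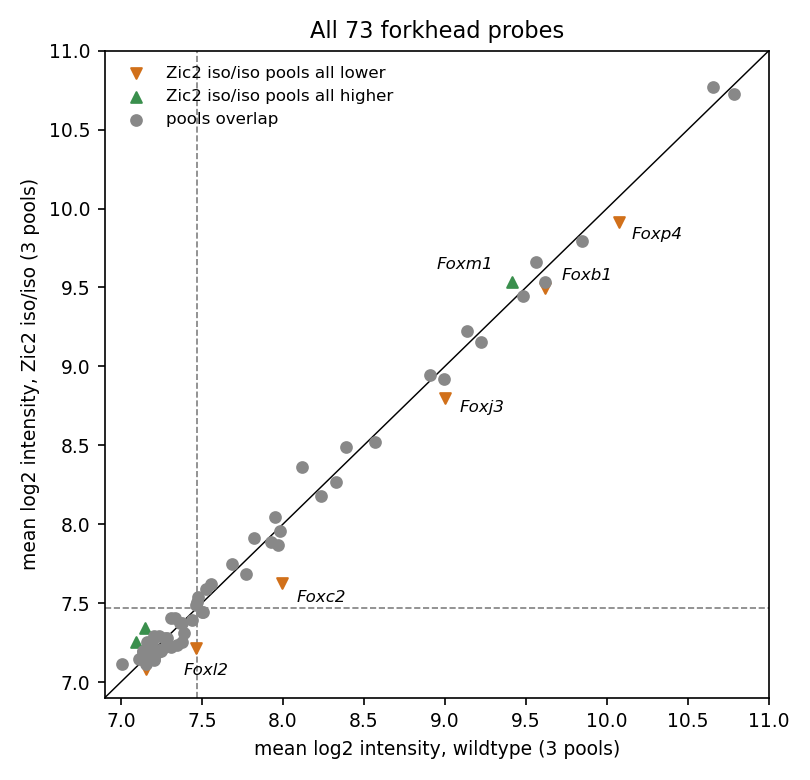
Mean log2 intensity of each of the 73 forkhead probes in *Zic2* iso/iso pools (y axis) against wildtype pools (x axis, n = 3 pools each), with equality as the solid line and the dim level of 7.47 dashed. Triangles mark probes whose pools did not overlap, and *Foxc2* is the probe above the dim level that lies farthest below the line.

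Seen over all probes, the pools did not overlap in 9 of 73 (12.3%), against 10.6% of all probes, with 6 lower and 3 higher in *Zic2* iso/iso pools (5.46% and 5.18% of all probes). Above the dim level 34 forkhead probes were found, and in 5 of these (14.7%) the pools did not overlap, against 12.4% of all probes above it. More than 1 probe was above the dim level in 6 genes, *Foxb1*, *Foxj3*, *Foxk2*, *Foxm1*, *Foxp3* and *Foxp4*. In each of the 6 the probes differed in sign. In *Foxj3* and *Foxp3*, however, the only probe above 0 was above the dim level in the *Zic2* iso/iso mean only, which fixes its sign.

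The difference between the brightest probe and each other one above the dim level was also taken within a pool, on the normalised log2 values, in 10 pairs of probes. The pools of the genotypes overlapped in 7 of the 10 and did not in 3. No share for pairs of probes over the whole array was taken, so this count has nothing to be read against. Pairs of the same gene share its brightest probe and are not separate. For *Foxb1* the difference averaged 1.45 ± 0.10 in *Zic2* iso/iso pools and 1.67 ± 0.12 in wildtype pools (SD, n = 3 each), and for *Foxm1* it averaged 0.09 ± 0.09 in *Zic2* iso/iso pools and -0.07 ± 0.10 in wildtype pools. For *Foxp4* it averaged 2.32 ± 0.11 in *Zic2* iso/iso pools and 2.55 ± 0.04 in wildtype pools with the dimmest probe. These are the 3 pairs without overlap, and the brightest probe of each is one whose own pools did not overlap, so that the pairs are no separate evidence. With the remaining probe of *Foxp4* the difference was 1.84, 2.38 and 2.27 in *Zic2* iso/iso pools and 2.38, 2.30 and 2.49 in wildtype pools, which overlapped. Which transcripts each probe reads was not tested.

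**Figure D4:**
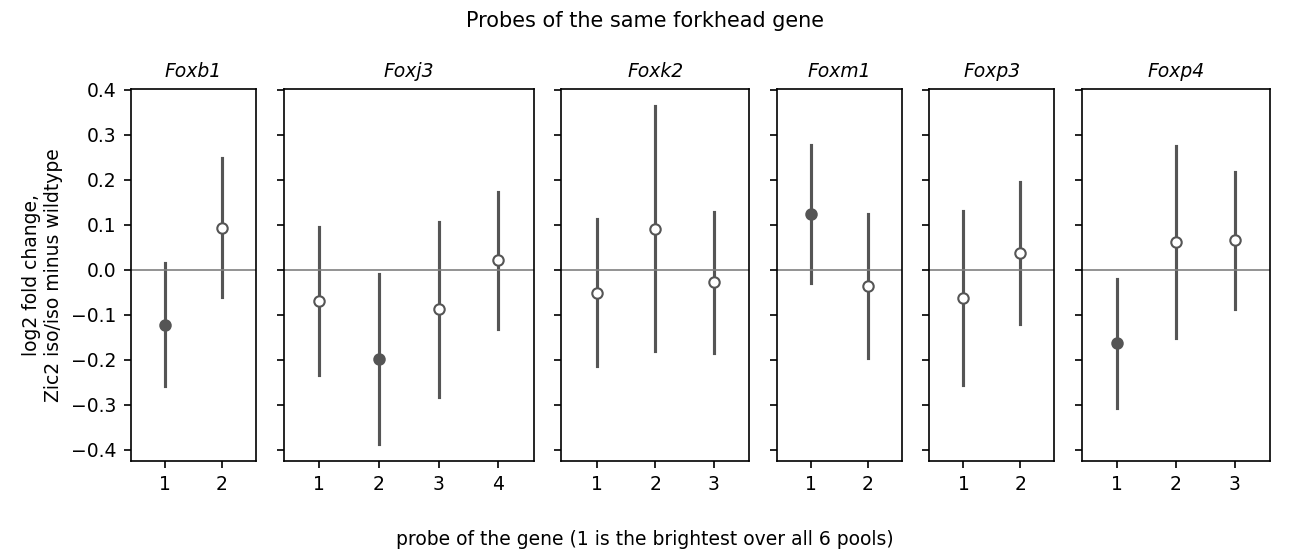
Log2 fold change of *Zic2* iso/iso minus wildtype (y axis) for each probe above the dim level in the 6 forkhead genes with more than 1 such probe, with 95% intervals from limma (3 pools per genotype). Filled points mark probes whose pools did not overlap, and in every gene there are points on both sides of 0. In *Foxj3* and *Foxp3* the point above 0 is a probe above the dim level in the *Zic2* iso/iso mean only, which fixes its sign.

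ZIC2 and the forkhead factors both bind DNA, so the sequence before the start of genes was searched for short motifs linked to them. RefSeq windows (GRCm38.p6) were found for 27 of the 40 members, 32 windows in all. The 13 members without a window include *Foxc2*, *Foxf1*, *Foxb1* and *Foxm1*, so the search does not cover them. In each window 250 bases before the start were read on both strands. Median GC content was 62.4% in member windows and 52.4% in all 32851 windows. The forkhead core TGTTTAC was found in 1 member window (3.12%), that of *Foxa1*, and in 3.17% of all windows. A second form, TGTTTGC, was found in 2 member windows (6.25%), of *Foxj3* and *Foxp1*, and in 4.3% of all. CCTGGG, a run of letters shared by the putative ZIC2 sites that the study tested in a *Nodal* enhancer, was found in 13 member windows (40.6%) and in 29.1% of all. The study did not find ZIC2 binding at all of these sites in its gel shift assay. Not all were needed for activation of its reporter, so the run is not an established ZIC2 motif here. These matches are descriptions of sequence, and the windows were not matched for GC content.

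The windows shown are those of a member with each motif and of *Foxp4*, whose brightest probe was lower in all mutant pools and whose window holds none of the 3 motifs. Motif letters are in capitals and all are written 5′ to 3′ on the gene's strand. The annotated start of *Foxa1* lies within a longer transcript, so its whole window is not printed. *Foxa1* is shown for its forkhead core on the other strand, which begins 141 bases before that start, at chr12:57546236-57546262 (minus strand), with 10 bases on each side.
Foxa1: atactgctttGTAAACAaagtgagggc
For *Foxj3*, at chr4:119539411-119539660 (plus strand), the second form lies on the other strand and begins 216 bases before the start.
Foxj3: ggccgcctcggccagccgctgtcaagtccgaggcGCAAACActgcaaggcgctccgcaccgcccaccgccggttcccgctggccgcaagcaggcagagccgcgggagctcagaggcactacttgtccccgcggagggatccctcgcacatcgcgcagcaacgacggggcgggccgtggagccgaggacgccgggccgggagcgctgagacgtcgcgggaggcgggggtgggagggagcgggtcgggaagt
For *Foxc1*, at chr13:31806396-31806645 (plus strand), the CCTGGG run begins 27 bases before the start.
Foxc1: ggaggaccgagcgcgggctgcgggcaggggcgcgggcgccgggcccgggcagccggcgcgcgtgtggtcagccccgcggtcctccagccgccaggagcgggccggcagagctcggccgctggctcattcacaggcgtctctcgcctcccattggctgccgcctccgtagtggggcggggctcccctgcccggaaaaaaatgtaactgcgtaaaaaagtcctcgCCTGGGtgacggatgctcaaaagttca
The window of *Foxp4* is at chr17:47924633-47924882 (minus strand).
Foxp4: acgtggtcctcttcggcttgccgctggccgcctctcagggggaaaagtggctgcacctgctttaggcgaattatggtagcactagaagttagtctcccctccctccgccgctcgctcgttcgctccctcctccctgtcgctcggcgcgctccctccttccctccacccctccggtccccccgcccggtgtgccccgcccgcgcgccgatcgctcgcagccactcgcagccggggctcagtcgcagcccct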

How the data were processed

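RNA of 3 *Zic2* iso/iso and 3 wildtype pools was hybridised to Illumina Mouse WG6 v2 arrays, and genotype and replicate number were taken from the labels. The authors deposited linear intensities, 1 for each probe in each pool, with neither background subtraction nor normalisation between arrays. The variance stabilising package of the methods was not installed, and that step was rewritten as an alternative. Intensities under 1 were set to 1, and log2 values were quantile normalised and fitted probe by probe with limma 3.58.1 (lmFit, eBayes) in R 4.3.3, without covariates. P-values were adjusted by Benjamini-Hochberg over all 45281 probes at a threshold of 0.05. The fit was tested on simulated data. No filter on dim probes was applied.

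Gene symbols came from GEO's platform annotation, where 34885 probes carry 1 symbol, 18 several and 10378 none, and all 40 forkhead symbols are current RefSeq symbols (*Foxf1a* counted as *Foxf1*). Named with every pool's value are genes above the dim level with an unadjusted p under 0.05 or pools that do not overlap, and the brightest of each letter subfamily. *Foxa1*, *Foxa2* and the second *Foxj3* probe were added after their values were seen. The members and lists were chosen with earlier results of these data known. One gene list is not reported here. The labels do not say that pools came from separate litters, so p-values measure the spread between these pools. The number of arrays limits the precision. Alternatives were other normalisations, a background correction (normexp, offset 50), a filter on dim probes, other variance priors, array weights, a replicate block, each pool left out, probes averaged by gene, and other thresholds and dim levels.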

Additional observations from a re-analysis of the deposited data

How the results depend on the processing

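Of the 73 forkhead probes 0 passed the adjusted threshold under every alternative run, while calls over the whole array ran from 4 without normalisation, 11 with median centring and 12 genes with probes averaged to 31 with an intensity trend, against 20. *Foxc2* stayed below 0 in all 16 alternatives (log2 fold change -0.54 to -0.30, limma adjusted p 0.114 to 1.00). The replicate numbers did not pair the pools (correlations of deviations -0.08, -0.01 and -0.07), and with the replicate block 17 probes were called and the smallest forkhead adjusted p was 0.287. Without normalisation between arrays, which moved the median of all probes by 0.05, 9 genes turned from below to above 0, *Foxc1* (0.0254), *Foxd2* (0.00301), *Foxj2* (0.0252), *Foxj3* (0.0282), *Foxk2* (0.0318), *Foxo1* (0.0376), *Foxo3* (0.0351), *Foxp3* (0.0186) and *Foxq1* (0.0176). With probes averaged by gene, *Foxk2* (0.0041), *Foxo1* (0.0043) and *Foxp3* (0.0117) turned. With each pool left out in turn, 8 genes changed sign, *Foxa1* (-0.181 to 0.0311), *Foxc1* (-0.142 to 0.0549), *Foxj3* (-0.114 to 0.00778), *Foxn2* (-0.0178 to 0.167), *Foxo1* (-0.118 to 0.0302), *Foxo3* (-0.073 to 0.0103), *Foxp1* (-0.049 to 0.114) and *Foxp3* (-0.142 to 0.0316). The cause of these changes was not tested. *Foxb1* and *Foxp4* lost their separate pools without normalisation and with median centring, *Foxf1* gained them with median centring and the variance stabilising normalisation, and *Foxk1* gained them with median centring.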
